A study of Mus musculus with 14 samples.

Results

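The genes described here are 10 targets of the nuclear receptor PPARα that answer to fasting in liver and act outside the β-oxidation spiral: Pdk4, Vnn1, Retsat, Slc22a5, Creb3l3, Fabp1, Fabp2, Fabp4, Cd36 and Mgll. They were chosen by symbol, and each was measured by 1 probe set annotated to that symbol alone, so 10 of 22180 genes are followed. Whole liver of male C57Bl/6J mice was profiled on Affymetrix arrays. In every group a high-fat diet (HFD, 60% fat) began at 6 weeks of age and ran for 4 weeks, followed by 4 weeks of treatment. Mice given HFD with canagliflozin (30 mg/kg in the sample labels, 25 to 30 mg/kg in the protocol) gave 5 arrays. Mice whose intake was cut by 15 to 30% to match the weight of the drug group gave 5 arrays, and mice left on HFD gave 4. Canagliflozin blocks SGLT2, the transporter that recovers filtered glucose in the kidney. No lean group was analysed here, and the sources used here do not say whether the mice were fed or fasted at collection.

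PPARα is activated by fatty acids and binds DNA with its partner RXR at paired AGGTCA repeats set 1 base apart. In fasting, fatty acids released from fat tissue reach the hepatocyte, and the receptor raises genes for their uptake, binding, transport and oxidation. The 10 genes cover the steps around oxidation. Cd36 and the FABP proteins take up and bind fatty acids, Slc22a5 imports the carnitine that carries them into mitochondria, and Mgll releases the last fatty acid of a glyceride. Pdk4 spares pyruvate, Vnn1 recycles part of coenzyme A, Retsat acts on retinol, and Creb3l3 encodes a transcription factor that works beside PPARα. Liver is the usual site of Fabp1, whereas Fabp2 is best known from enterocytes and Fabp4 from adipocytes and macrophages.

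Promoter sequence was available for 8 of these genes, with 10 start sites, in the RefSeq table of build GRCm38.p6 (250 bases before to 50 after each start). There was none for Vnn1 and Fabp4, which were not searched. The promoters were searched on both strands for the paired repeat named above, AGGTCA, any base, then AGGTCA again. The number of letters allowed to differ was chosen with the sequences in view. Of 32851 promoters in the table, 0.0396% held it exactly, 0.554% with at most 1 of its 12 fixed letters changed and 3.86% with at most 2. No start site of the 10 matched exactly, 1 matched with at most 1 change and 3 with at most 2. With at most 3 changes 4 of the 10 matched, beside 24.6% of all promoters. A single AGGTCA was present in 3 of the 10, beside 16.3%. The closest match was in Fabp1 on the reverse strand, beginning at base -67 from the start, followed by Creb3l3 at base -209 on the forward strand and Cd36 at base -63 on the reverse strand. These 3 promoters are shown because they hold the matches with at most 2 changes, which are in capitals. They are chr6:71199629-71199928 (plus strand) for Fabp1, chr10:81092542-81092841 (minus strand) for the downstream Creb3l3 start and chr5:17835847-17836146 (minus strand) for Cd36. At the upstream Creb3l3 start, chr10:81098823-81099122 (minus strand), the closest match had 4 changes.
Fabp1: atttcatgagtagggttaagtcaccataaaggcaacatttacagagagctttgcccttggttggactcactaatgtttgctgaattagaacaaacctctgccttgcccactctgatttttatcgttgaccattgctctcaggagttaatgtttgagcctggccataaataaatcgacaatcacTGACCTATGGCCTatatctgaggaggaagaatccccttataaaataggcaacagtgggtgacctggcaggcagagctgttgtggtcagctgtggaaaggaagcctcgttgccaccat
Creb3l3: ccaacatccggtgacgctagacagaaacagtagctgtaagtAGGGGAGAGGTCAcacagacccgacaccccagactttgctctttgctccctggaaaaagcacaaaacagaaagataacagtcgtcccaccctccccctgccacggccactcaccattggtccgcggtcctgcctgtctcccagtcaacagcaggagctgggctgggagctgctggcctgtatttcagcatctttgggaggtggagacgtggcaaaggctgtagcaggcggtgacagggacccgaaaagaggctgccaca
Cd36: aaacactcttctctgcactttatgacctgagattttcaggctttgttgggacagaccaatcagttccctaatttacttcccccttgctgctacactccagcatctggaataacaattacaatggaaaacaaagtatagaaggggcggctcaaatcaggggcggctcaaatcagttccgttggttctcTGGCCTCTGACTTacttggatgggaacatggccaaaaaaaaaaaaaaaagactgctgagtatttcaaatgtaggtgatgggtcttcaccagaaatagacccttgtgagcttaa
A match is a description of letters, not a site shown to be bound, and nothing about the receptor follows where none was found in this window.

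The 14 arrays were alike in scale, with medians of 4.07 to 4.13 on the log2 scale and gene-level correlations of 0.986 to 0.992 for any pair. Canagliflozin replicate 3 had the lowest mean correlation with the other arrays of its own group (0.988), and 0.990 with those of the other groups. Hepatocyte markers were bright on every array, the mean over 8 of them running from 12.40 to 12.53 under canagliflozin, from 12.39 to 12.51 under caloric restriction and from 12.35 to 12.44 on HFD. The number of arrays limits the precision. The labels do not say that every array is a separate mouse. The p-values set differences against the spread between these arrays, and may not speak for separate mice. Of 22180 genes, 0.0% passed the threshold (limma, adjusted p under 0.05) for canagliflozin against HFD, 0.0% for caloric restriction against HFD and 0.00451% for canagliflozin against caloric restriction. At an unadjusted p under 0.05, 711 genes were higher and 733 lower for canagliflozin against HFD, 457 and 415 for caloric restriction against HFD, and 680 and 661 for canagliflozin against caloric restriction.

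Under canagliflozin, 6 of the 10 genes had higher means than on HFD, as did 49.7% of all genes: Pdk4 at 2.20-fold, Slc22a5 at 1.58-fold, Fabp4 at 1.48-fold, Vnn1 at 1.46-fold, Retsat at 1.34-fold and Cd36 at 1.31-fold. Creb3l3, Fabp1, Fabp2 and Mgll lay within 1.13-fold of HFD. None of the 10 passed over all genes (limma, adjusted p from 0.607 to 1), against a background of 0.0%. At an unadjusted p under 0.05, 4 of the 10 were higher (Pdk4, Retsat, Slc22a5 and Fabp4) and 0 lower, where 3.21% of all genes were higher and 3.3% lower. The median log2 difference of the 10 was 0.41, beside -0.001 over all genes, and it was 0.18 without HFD replicate 1. The count was 3 without HFD replicate 1, 3 or 4, and 4 without any other single array. In these fits 2.66% to 3.7% of all genes were higher. The count was also 3, with Pdk4 lost, when the 2 groups were fitted alone (3.08% of all genes) or with a trended and robust variance (3.13%).

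**Figure D1:**
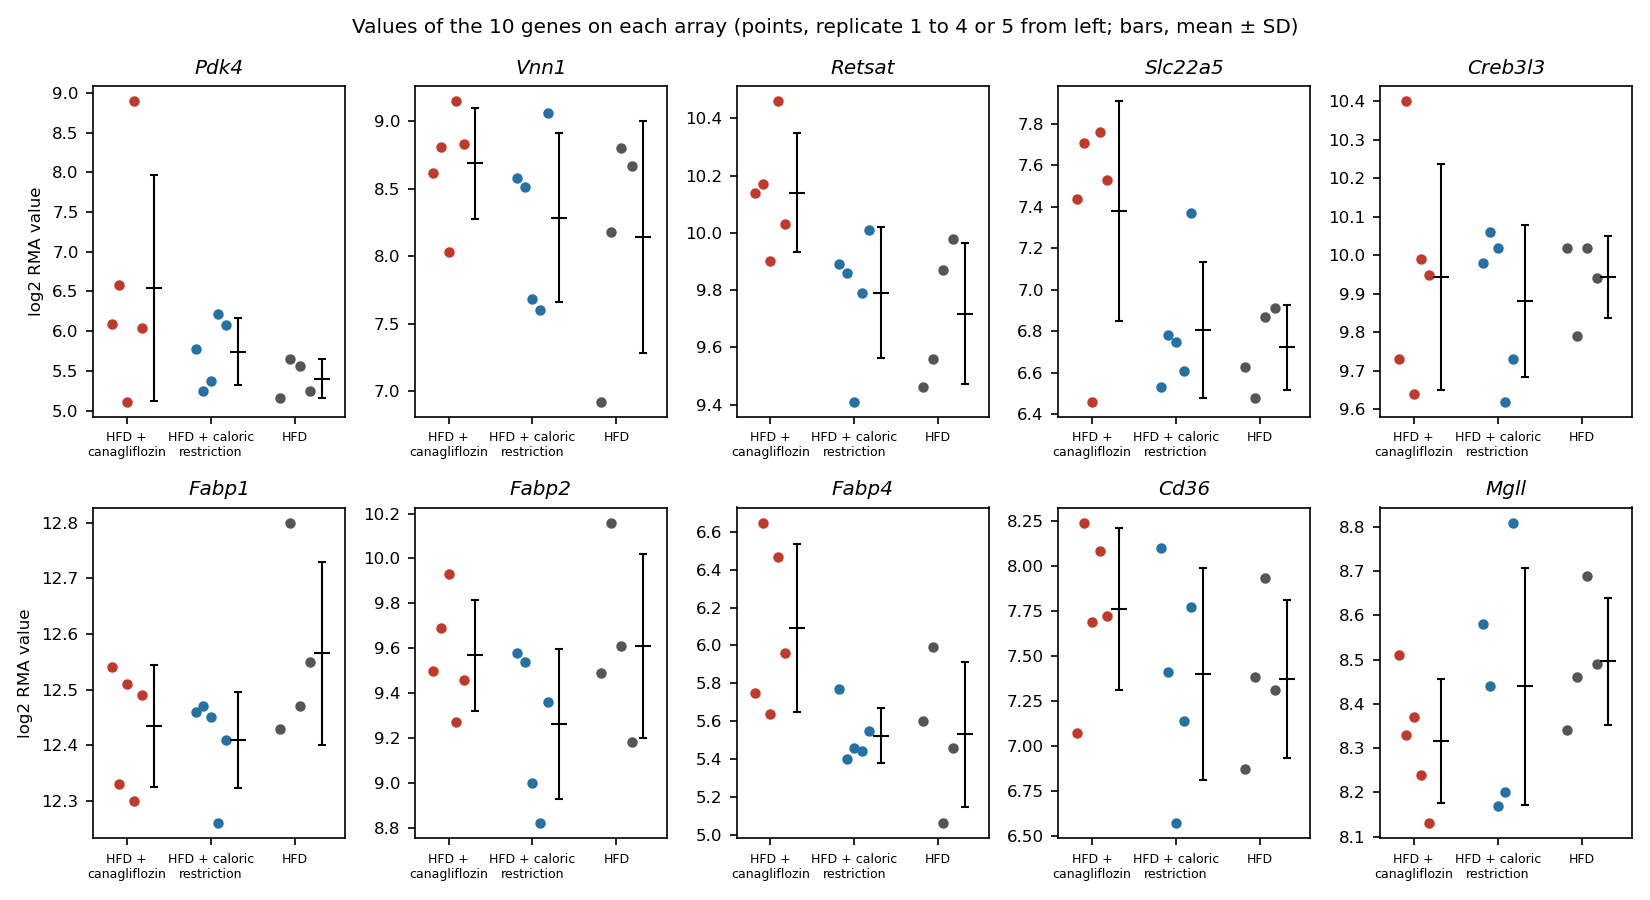
Log2 values of the 10 genes on each array (y axis of each panel, with its own range that does not begin at 0) under canagliflozin, caloric restriction and HFD; points are arrays, and bars are the mean ± SD (n = 5, 5 and 4). Pdk4 reached 8.90 on a single canagliflozin array, and canagliflozin replicate 3 lay below the HFD range for Pdk4 and Slc22a5.

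Slc22a5, which encodes the carnitine transporter OCTN2, had log2 values of 7.44, 7.71, 6.46, 7.76 and 7.53 in canagliflozin replicates 1 to 5, against 6.63, 6.48, 6.87 and 6.91 in HFD replicates 1 to 4. Replicates 1, 2, 4 and 5 of the drug group lay above every HFD array, and replicate 3 lay below all of them. The difference was 0.66 ± 0.22 (SE) on the log2 scale, with a 95% interval of 0.19 to 1.12 (limma adjusted p = 0.607). Over the 14 fits that each left out an array, this difference ran from 0.56 to 0.89, with limma adjusted p from 0.0518 to 0.871. The lowest was without canagliflozin replicate 4. The highest was without replicate 3, the array below the HFD range (0.89, limma adjusted p = 0.0518). Under caloric restriction the values were 6.53, 6.78, 6.75, 6.61 and 7.37, so that replicate 5 alone exceeded the HFD range. Canagliflozin exceeded caloric restriction by 0.57 ± 0.21 (limma adjusted p = 0.767, unadjusted p = 0.0135), with 4 of 5 drug-treated arrays above all 5 restricted ones.

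Retsat, the retinol saturase, had 10.14, 10.17, 9.90, 10.46 and 10.03 under canagliflozin, against 9.46, 9.56, 9.87 and 9.98 on HFD. All drug-treated arrays but replicate 3 lay above the highest HFD array, and replicate 3 lay between the top pair of HFD values. The difference was 0.42 ± 0.14 (limma adjusted p = 0.607, unadjusted p = 0.0075). Caloric restriction gave 9.89, 9.86, 9.41, 9.79 and 10.01, a difference from HFD of 0.07 ± 0.14 with overlapping ranges. Against caloric restriction the drug group was higher by 0.35 ± 0.13 (limma adjusted p = 0.785). The same 4 of its 5 arrays that exceeded every HFD array also lay above all restricted arrays.

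Pdk4 encodes the kinase that switches off pyruvate dehydrogenase. Its values were 6.09, 6.58, 5.11, 8.90 and 6.04 under canagliflozin, against 5.16, 5.65, 5.56 and 5.24 on HFD. Replicates 1, 2, 4 and 5 exceeded every HFD array, while replicate 3 was below them. The group SD was 1.42 under the drug and 0.24 on HFD. The difference was 1.14 ± 0.49 (limma adjusted p = 0.741), and 0.55 without replicate 4 of the drug group. Caloric restriction gave 5.78, 5.25, 5.37, 6.21 and 6.08, with 3 of 5 arrays above the HFD range and a difference of 0.34 ± 0.49. Canagliflozin minus caloric restriction was 0.80 ± 0.46 (limma adjusted p = 0.836), and 0.21 without canagliflozin replicate 4.

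Vnn1, a pantetheinase that splits pantetheine into pantothenate and cysteamine, had 8.62, 8.81, 8.03, 9.15 and 8.83 under canagliflozin, against 6.92, 8.18, 8.80 and 8.67 on HFD. The groups overlapped, and HFD replicate 1 lay well under all others. The difference of 0.55 ± 0.35 (limma adjusted p = 0.829) was 0.14 without that array. Caloric restriction gave 8.58, 8.51, 7.68, 7.60 and 9.06, and differed from HFD by 0.15 ± 0.35, or by -0.26 without HFD replicate 1.

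Among the genes of uptake and binding, Fabp4 and Cd36 had higher means under the drug while Fabp1 and Fabp2 did not. Fabp4, which encodes a fatty acid carrier of adipocytes, macrophages and some endothelium, had 5.75, 6.65, 5.64, 6.47 and 5.96 under canagliflozin, against 5.60, 5.99, 5.06 and 5.46 on HFD. Replicates 2 and 4 of the drug group lay above all HFD arrays, and none lay below the HFD range. The difference was 0.56 ± 0.20 (limma adjusted p = 0.637, unadjusted p = 0.011). Under caloric restriction the values were 5.77, 5.40, 5.46, 5.44 and 5.55, all within the HFD range, and the mean differed from HFD by -0.006 ± 0.20. Canagliflozin exceeded caloric restriction by 0.57 ± 0.19 (limma adjusted p = 0.683), with 3 of 5 drug-treated arrays above all restricted ones.

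Whole liver holds cells other than hepatocytes, and in such samples fewer cells of a type cannot be told apart from less RNA per cell. Adipocyte markers were dim, the mean over 6 of them running from 3.95 to 4.20 under canagliflozin, from 3.92 to 4.12 under caloric restriction and from 4.08 to 4.22 on HFD. Adiponectin (Adipoq), 1 of these 6, averaged 3.10 under canagliflozin, 3.13 under caloric restriction and 3.10 on HFD. Of the 6, 2 had higher means under canagliflozin than on HFD, and 3 had higher means than under caloric restriction. At an unadjusted p under 0.05 (limma), 1 was lower than on HFD, as were 3.3% of all genes. Plin1 was higher than under caloric restriction (0.27 ± 0.11, limma adjusted p = 0.801), as were 3.07% of all genes at that unadjusted threshold. The mean of 8 macrophage and Kupffer cell markers ran from 6.60 to 7.13 under canagliflozin, from 6.03 to 6.96 under caloric restriction and from 6.20 to 7.15 on HFD. Of these 8 markers, 7 had higher means under canagliflozin than on HFD, as did 49.7% of all genes. All 8 had higher means than under caloric restriction, as did 49.0% of all genes. In both comparisons 0 passed over all genes (limma) and 0 had an unadjusted p under 0.05. The mean of 8 endothelial markers ran from 6.86 to 7.18 under canagliflozin, from 6.80 to 7.25 under caloric restriction and from 6.94 to 7.12 on HFD. The part of macrophages and endothelium in the Fabp4 and Cd36 values was not tested.

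Cd36, the membrane protein that takes up long-chain fatty acids, had 7.07, 8.24, 7.69, 8.08 and 7.72 under canagliflozin, against 6.87, 7.38, 7.93 and 7.31 on HFD. The ranges overlapped, with replicates 2 and 4 of the drug group above all HFD arrays. The difference of 0.39 ± 0.28 (limma adjusted p = 0.862) was 0.22 without HFD replicate 1. Caloric restriction covered the widest range of the groups, with 8.10, 7.41, 6.57, 7.14 and 7.77, and its mean differed from HFD by 0.03 ± 0.28. Canagliflozin minus caloric restriction was 0.36 ± 0.26 (limma adjusted p = 0.883).

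Fabp1 encodes the abundant fatty acid carrier of hepatocytes. It had 12.54, 12.33, 12.51, 12.30 and 12.49 under canagliflozin, against 12.43, 12.80, 12.47 and 12.55 on HFD, and no drug-treated array exceeded the HFD range. The difference was -0.13 ± 0.10 with a 95% interval of -0.33 to 0.07 (limma adjusted p = 0.867). Caloric restriction gave 12.46, 12.47, 12.45, 12.26 and 12.41, and a difference from HFD of -0.15 ± 0.10 (limma adjusted p = 0.999).

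Fabp2, the intestinal-type carrier, had 9.50, 9.69, 9.93, 9.27 and 9.46 under canagliflozin, against 9.49, 10.16, 9.61 and 9.18 on HFD. Every drug-treated array lay inside the HFD range, and the difference was -0.04 ± 0.19 (limma adjusted p = 0.988). Caloric restriction gave 9.58, 9.54, 9.00, 8.82 and 9.36, with 2 of 5 arrays under the HFD range. Its difference from HFD, -0.35 ± 0.19, had the smallest unadjusted p of the 10 genes in that comparison (0.0826, limma adjusted p = 0.999), and was -0.17 without HFD replicate 2. Most of the enterocyte markers were dim, 6 of 8 with a group mean under 4.5 in each group, the others being Apob and Mttp, which hepatocytes also use.

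Creb3l3 encodes CREBH, a membrane-bound transcription factor of the endoplasmic reticulum that is released by proteolysis. Its mean was 9.94 ± 0.29 (SD, n = 5) under canagliflozin and 9.94 ± 0.11 (n = 4) on HFD. The drug-treated arrays stood at 9.73, 10.40, 9.64, 9.99 and 9.95, against 10.02, 9.79, 10.02 and 9.94 on HFD, so the means coincided while replicate 2 lay above and replicates 1 and 3 below the HFD range. The 95% interval was -0.29 to 0.29 (limma adjusted p = 1). Caloric restriction gave 9.98, 10.06, 10.02, 9.62 and 9.73, a difference from HFD of -0.06 ± 0.14.

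Mgll encodes monoacylglycerol lipase, and of the 10 genes its mean was the farthest below HFD under the drug. It had 8.51, 8.33, 8.37, 8.24 and 8.13 under canagliflozin, against 8.34, 8.46, 8.69 and 8.49 on HFD, with replicates 2, 4 and 5 below all HFD arrays. The difference was -0.18 ± 0.13 (limma adjusted p = 0.859). Caloric restriction gave 8.58, 8.44, 8.17, 8.20 and 8.81, and differed from HFD by -0.06 ± 0.13.

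**Figure D2:**
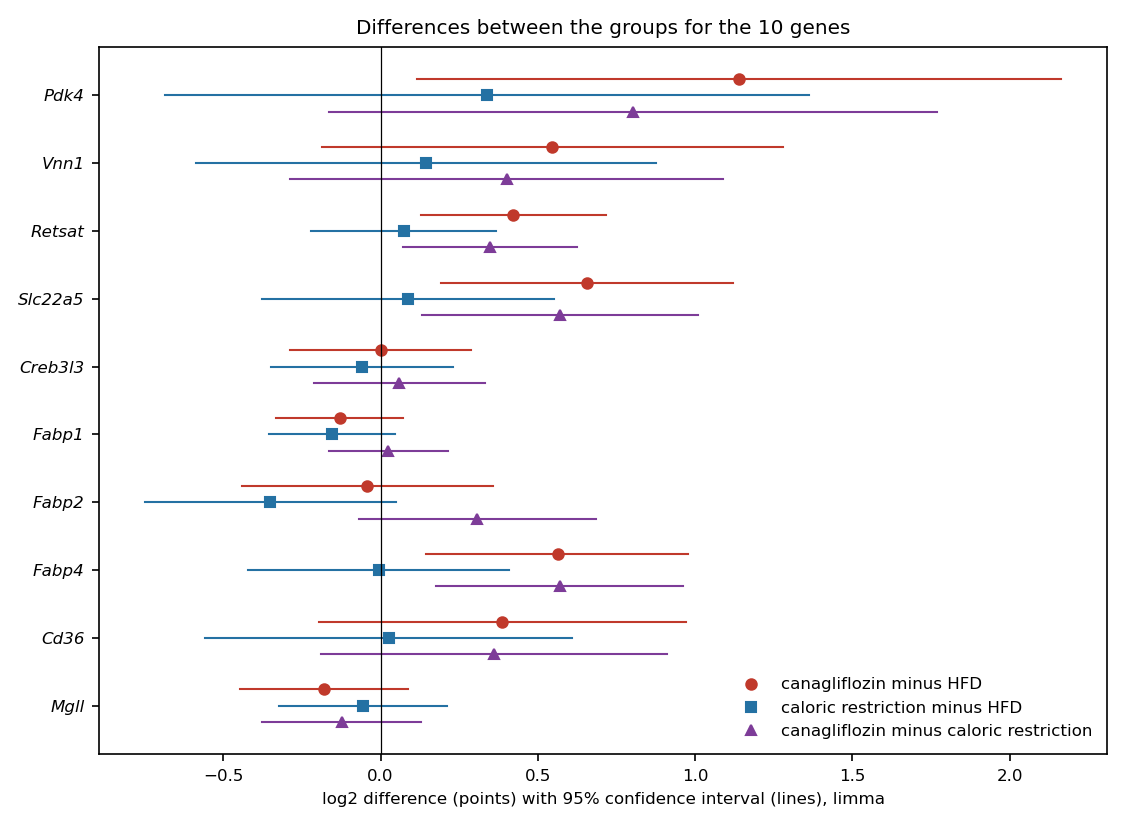
Log2 differences of the 10 genes (points) with 95% confidence intervals from limma (lines) for canagliflozin minus HFD, caloric restriction minus HFD and canagliflozin minus caloric restriction. The intervals of Pdk4, Retsat, Slc22a5 and Fabp4 lie above 0 for canagliflozin minus HFD, and all 10 cross 0 for caloric restriction minus HFD; the intervals are not adjusted for the number of genes.

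Weight-matched caloric restriction gave small differences from HFD across the set. Of the 10 genes 5 had higher and 5 lower means, where 50.5% of all genes were higher, with differences from -0.35 for Fabp2 to 0.34 for Pdk4, and a median of 0.01 beside 0.002 over all genes. Without single arrays the median lay between -0.075 and 0.066. None passed over all genes (limma, adjusted p of 0.999 for each, background 0.0%), and 0 had an unadjusted p under 0.05, where 2.06% of genes were higher and 1.87% lower. The upper limits of the unadjusted 95% intervals for Pdk4 (1.36), Vnn1 (0.88) and Cd36 (0.61) lay above the differences these genes had under the drug. Those for Slc22a5 (0.55), Fabp4 (0.41) and Retsat (0.37) lay below theirs, which were 0.66, 0.56 and 0.42. These drug differences have their own SE (0.22, 0.20 and 0.14), so a limit below them does not set restriction apart from the drug. In the direct comparison Slc22a5, Fabp4 and Retsat had limma adjusted p of 0.767, 0.683 and 0.785. For no member did the groups separate, which they did for 0.703% of genes above and 0.694% below HFD. This comparison and that of the drug with HFD share the 4 HFD arrays.

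Set directly against each other, canagliflozin had higher means than caloric restriction for 9 of the 10 genes, where 49.0% of all genes did, and Mgll was the exception at -0.12 ± 0.12. The median log2 difference was 0.36, beside -0.003 over all genes. This comparison shares its 5 canagliflozin arrays with that of the drug with HFD. None of the 10 passed (limma, adjusted p from 0.683 to 0.975, background 0.00451%). The smallest unadjusted p-values belonged to Fabp4 (0.00707), Slc22a5 (0.0135) and Retsat (0.0166), and 3.07% of all genes were higher and 2.98% lower at an unadjusted p under 0.05. The single gene that passed over the whole table in this comparison was Rtkn, the rhotekin gene, at -0.63 ± 0.09 (limma adjusted p = 0.0264), named after its values were seen. It was not called with the 2 groups fitted alone, with a mean log2 filter of 6, with the replicate block or without canagliflozin replicate 1, 4 or 5, caloric restriction replicate 1, 2, 3 or 4, or HFD replicate 2. For no member did all drug-treated arrays lie above or below all arrays of either other group, which held for 0.987% of genes above and 0.965% below HFD, and for 0.437% above and 0.491% below caloric restriction.

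**Figure D3:**
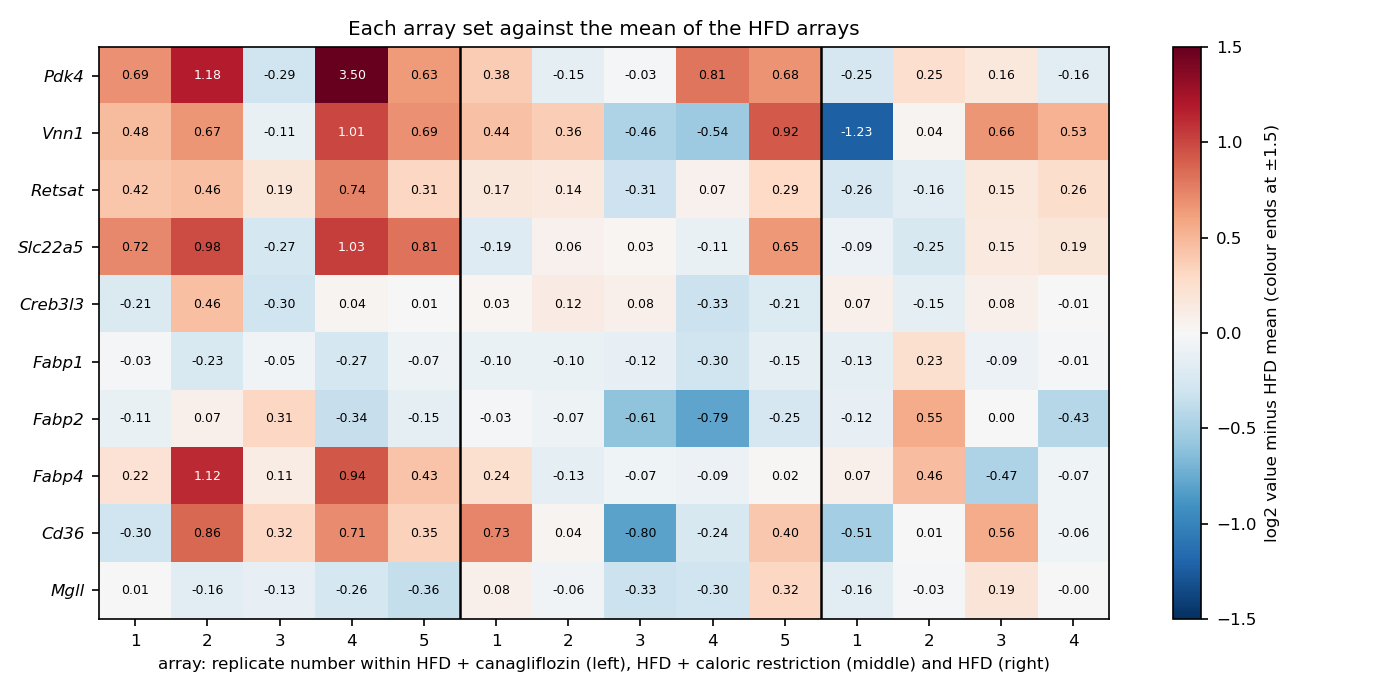
Log2 value of each gene on each array minus the mean of the 4 HFD arrays (colour and printed number; the colour scale ends at ±1.5), with arrays in columns and genes in rows. Canagliflozin replicates 2 and 4 carry the largest positive differences, replicate 3 is below the HFD mean for Pdk4, Vnn1, Slc22a5, Creb3l3, Fabp1 and Mgll, and caloric restriction replicates 1 and 5 tie as the restricted arrays with the most genes above the HFD mean.

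The members were not uniform across the arrays of a group. In canagliflozin replicates 1 to 5, 3, 7, 0, 6 and 4 of the 10 genes lay above all HFD arrays, where 20.0% to 22.4% of all genes did so on those arrays. Replicate 3 thus had no member above the HFD range and 3 below it, where 20.0% of all its genes lay above and 21.2% below. Under caloric restriction the counts were 2, 1, 1, 1 and 5, with 18.3% to 21.3% of all genes above. Caloric restriction replicate 5 held Pdk4, Vnn1, Retsat, Slc22a5 and Mgll above the HFD range, and replicates 3 and 4 each had 4 members below it, where 20.0% and 20.9% of all genes lay below.

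Within groups, Vnn1 and Retsat varied together. After subtraction of each group's mean, their values over the 14 arrays correlated with r = 0.811 (permutation p = 0.00064, adjusted p = 0.0288 over 45 pairs of members) and rho = 0.864 (permutation p = 0.00083, adjusted p = 0.0373). Without the 2 arrays farthest from the median of Retsat r was 0.821, and without the 2 farthest in Vnn1 it was 0.894. This was the only pair of the 45 to pass after adjustment. Vnn1 with Cd36 had r = 0.691 (permutation p = 0.0135, adjusted p = 0.168) and rho = 0.732 (permutation p = 0.00914, adjusted p = 0.163), and r = 0.682 without the 2 arrays farthest in Cd36. Vnn1 with Slc22a5 had r = 0.6 (permutation p = 0.00845, adjusted p = 0.168) and rho = 0.64 (permutation p = 0.0159, adjusted p = 0.163), and r = 0.464 without the 2 arrays farthest in Slc22a5. Fabp1 with Fabp2 had r = 0.65 (permutation p = 0.0355, adjusted p = 0.2) and rho = 0.675 (permutation p = 0.0177, adjusted p = 0.163), and r = 0.37 without the 2 farthest arrays, so that this relation rested on those arrays.

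**Figure D4:**
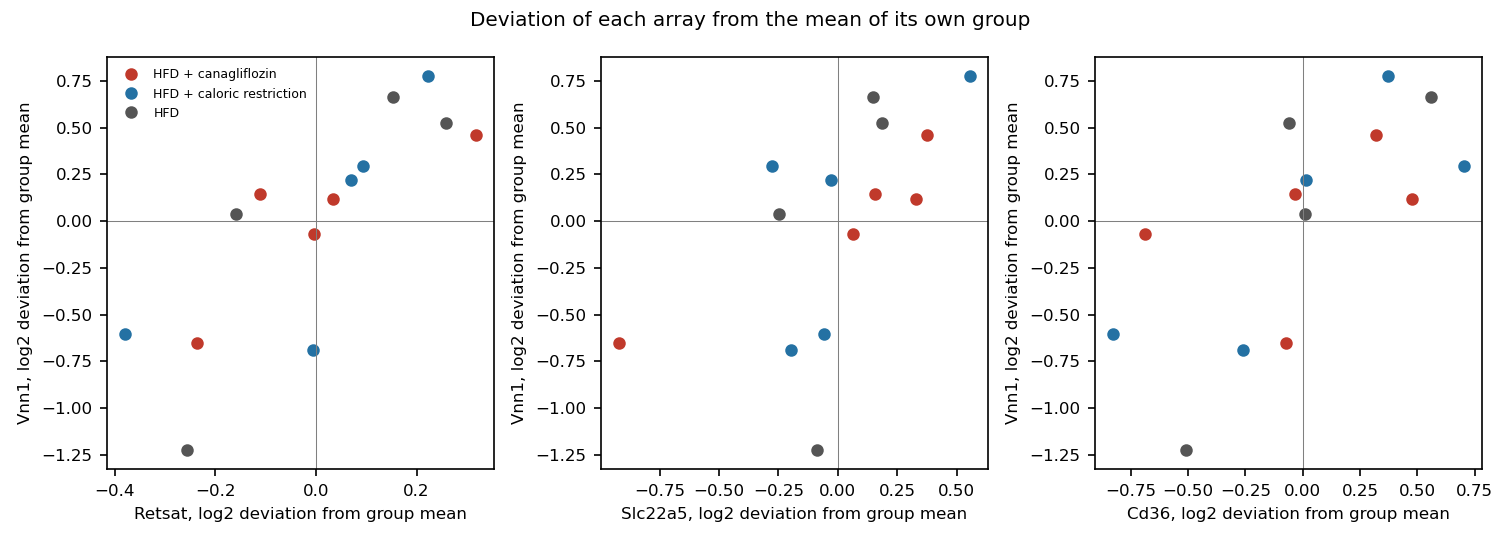
Deviation of Vnn1 from the mean of its own group (y axes, log2) against that of Retsat, Slc22a5 and Cd36 (x axes, log2), with 1 point per array coloured by group. High Vnn1 went with high Retsat over the 14 arrays (r = 0.811), and HFD replicate 1 is the lowest point for Vnn1.

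Likeness of pattern was also read over all genes. Among 9300 genes with a mean log2 value of at least 5, the nearest to each member over the 14 arrays (groups not subtracted) were picked for their high r, and are given without a test. For Retsat they were Cyp4a14, a fatty acid ω-hydroxylase (r = 0.938, rho = 0.899), and Acot1, a cytosolic acyl-CoA thioesterase (r = 0.936, rho = 0.938). For Slc22a5 they were the leptin receptor gene Lepr (r = 0.934, rho = 0.798) and Fgf21, a hepatic hormone of fasting (r = 0.902, rho = 0.798). Pdk4 was nearest to C9orf72 (r = 0.893, rho = 0.754) and to Igfbp1, whose product binds insulin-like growth factors (r = 0.89, rho = 0.824). Vnn1 was nearest to Serpina7, which encodes thyroxine-binding globulin (r = 0.905, rho = 0.824), and Etfdh of the electron transfer chain of β-oxidation (r = 0.903, rho = 0.868). Cd36 was nearest to Slc25a20, the mitochondrial carnitine-acylcarnitine carrier (r = 0.885, rho = 0.877), and Them7 (r = 0.883, rho = 0.899). For Creb3l3, Fabp1, Fabp2 and Mgll the highest r ran from 0.817 for Mgll with Rrm2 to 0.853 for Fabp2 with Tmem126b, and for Fabp4 it was 0.932 with Zfand6. The arrays share their normalisation, and a high r over them includes differences between the groups.

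Around these members, other targets of the receptor were read from lists, which were chosen with earlier results of these data known. Of 21 measured oxidative PPARα targets, 21 had higher means under canagliflozin than on HFD, as did 49.7% of all genes. Their median was 0.19, and 8 were higher at an unadjusted p under 0.05, as were 3.21% of all genes. Of these targets 0 passed over all genes (limma, smallest adjusted p = 0.136). Of 14 other targets outside oxidation, 12 had higher means with a median of 0.24, 3 had an unadjusted p under 0.05 and 0 passed (limma). Angptl4, which encodes an inhibitor of lipoprotein lipase, differed by 0.16 ± 0.12, Plin2, a lipid droplet coat protein, by 0.06 ± 0.13, and Fgf21 by 0.90 ± 0.32. Under caloric restriction the medians of these lists were 0.04 and 0.11, and 0 of either passed. There 1 oxidative target and 0 of the others were higher at an unadjusted p under 0.05, beside 2.06% of all genes.

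The receptor's own transcript, Ppara, averaged 9.25 under canagliflozin and 9.31 on HFD, a difference of -0.06 ± 0.13, and 9.25 under caloric restriction. Ppargc1a, which encodes the coactivator PGC-1α, differed by 1.14 ± 0.29 between canagliflozin and HFD (limma adjusted p = 0.559), with all 5 drug-treated arrays above all HFD arrays, and by 0.28 ± 0.29 under caloric restriction. Of the 13 measured receptor and coregulator genes 9 had higher means under the drug, as did 49.7% of all genes. Of these 13, 1 was higher at an unadjusted p under 0.05, beside 3.21% of all genes, and 0 passed (limma).

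**Figure D5:**
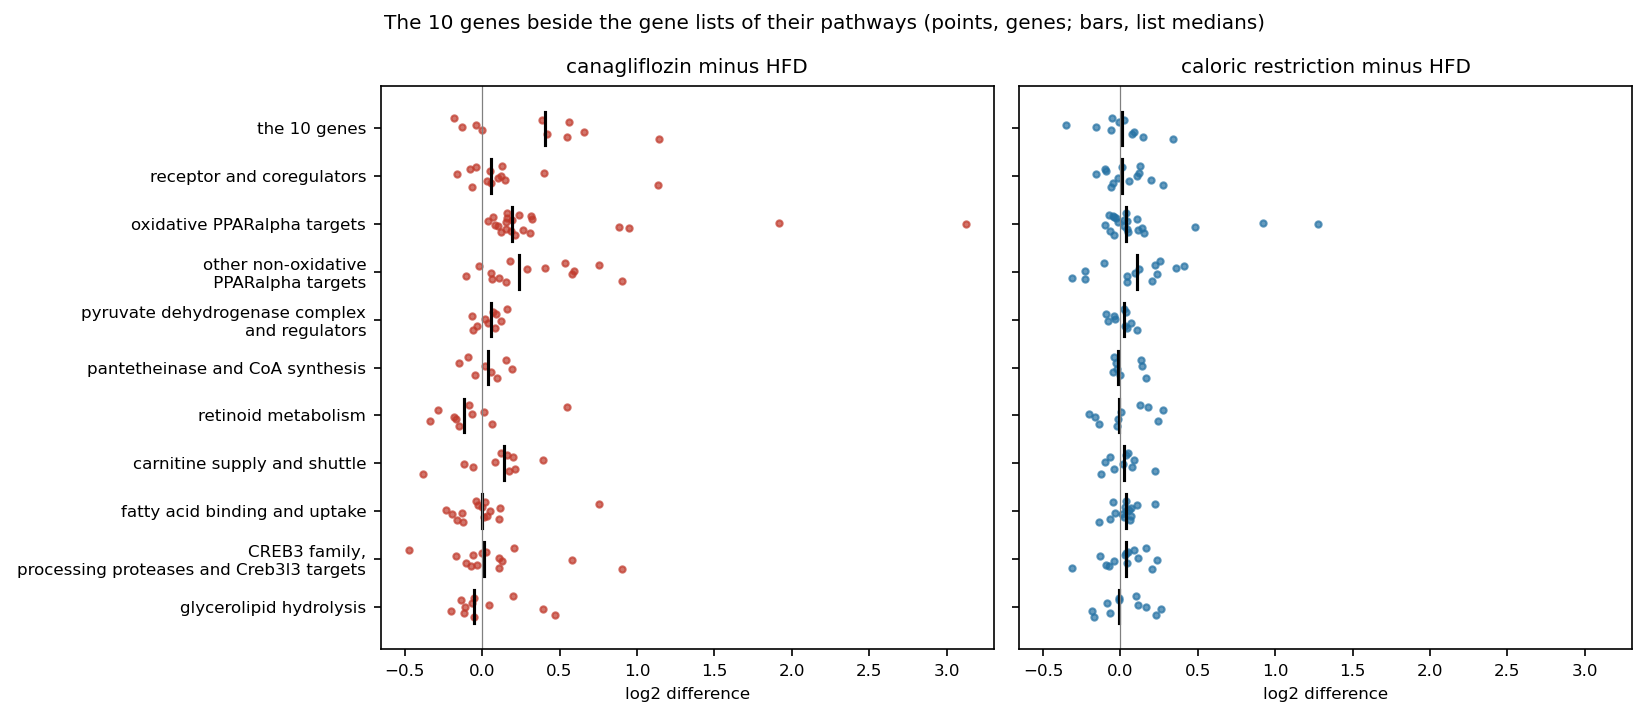
Log2 differences from HFD of single genes (points) and the median of each list (black bars) for canagliflozin (left) and caloric restriction (right); lists other than the 10 genes leave those genes out. The median of the 10 genes was 0.41 under canagliflozin and 0.01 under caloric restriction, and that of the oxidative targets 0.19 and 0.04.

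In the pathways of the single members, no list had a gene that passed over all genes (limma). Pdk1, Pdk2 and Pdk3, the other pyruvate dehydrogenase kinases, differed by -0.06 ± 0.14, 0.08 ± 0.14 and -0.03 ± 0.11 under canagliflozin, and none of the 10 genes measured for that complex and its regulators beside Pdk4 had an unadjusted p under 0.05. Vnn3, a second pantetheinase gene, differed by 0.09 ± 0.17, and 0 of 8 genes of coenzyme A synthesis and pantetheine cleavage reached an unadjusted p under 0.05. Slc22a4, the gene of the related transporter OCTN1, had a lower mean: it averaged 4.82 under canagliflozin and 5.21 on HFD, a difference of -0.39 ± 0.12 (limma adjusted p = 0.581), with 4 of 5 drug-treated arrays below all HFD arrays. Cpt1a, which loads carnitine with fatty acids, differed by 0.21 ± 0.14. Of 10 other carnitine genes, 7 had higher and 3 lower means, and 0 passed. At an unadjusted p under 0.05, 0 were higher and 1 (Slc22a4) was lower, beside 3.21% and 3.3% of all genes.

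In the family of carriers, Fabp3 and Fabp5 differed from HFD by -0.13 ± 0.10 and -0.16 ± 0.18 under the drug, and the hepatic fatty acid transporters Slc27a2 and Slc27a5 by 0.11 ± 0.10 and 0.009 ± 0.11. Of the 15 other genes of binding and uptake, 7 had higher and 8 lower means, and 1 had an unadjusted p under 0.05. Beside Mgll, the triglyceride lipase Pnpla2 differed by 0.47 ± 0.21 (limma adjusted p = 0.758) and the hormone-sensitive lipase Lipe by -0.05 ± 0.11. Of 11 genes of glycerolipid hydrolysis 4 were higher and 7 lower in mean, with 0 passing. At an unadjusted p under 0.05, 2 of these (Pnpla2 and Abhd6) were higher and 0 lower, beside 3.21% and 3.3% of all genes. Among genes linked to Creb3l3, its processing protease Mbtps1 differed by -0.07 ± 0.12, and its targets Apoa4 by 0.11 ± 0.26 and Fgf21 by 0.90 ± 0.32. The list split into 7 higher and 7 lower, with 1 (Fgf21) at an unadjusted p under 0.05 and 0 passing (limma). Of 10 other retinoid genes 3 were higher and 7 lower in mean, with 0 passing, beside the higher mean of Retsat. At an unadjusted p under 0.05, 1 of these 10 was higher and 0 lower.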

How the data were processed

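Liver RNA (250 ng per sample) was labelled with the Affymetrix WT Plus protocol, per the labels' protocols. The values are log2 signals for each probe set as the authors deposited them; the submitters' processing notes name RMA and Expression Console. RMA subtracts background, gives all arrays 1 distribution and summarises probes, so a global change in RNA would not be seen. No source used here gives a version or genome build, and signal over background was not analysed.

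Of 41345 probe sets, 23521 had 1 gene symbol, 1814 several and 16010 none. The brightest probe set stood for each of 22180 genes. All 14 arrays were fitted with limma 3.58.1 in R 4.3.3 (lmFit, eBayes; no filter, no covariate) with the Benjamini-Hochberg adjustment over all genes at 0.05. The fit was tested on simulated data. Correlations between members used 100000 permutations within groups. The members, lists and context genes were chosen with earlier results of these data known; all 10 members are named, with fixed context genes and the 2 nearest genes by correlation. Alternatives were the 2 compared groups alone, filters at a mean log2 of 5 or 6, cyclic loess, median centring, trended and robust variance, array weights, a replicate block, averaged probe sets and leaving out each array.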

Additional observations from a re-analysis of the deposited data

Results flagged for a closer look

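Of the 30 sets of values tested for a stray array (10 genes in 3 groups), 2 held an array whose gap to its nearest neighbour was large for the range of its group by Dixon's criterion, and chance gives about 1 in 20. Slc22a5 in canagliflozin replicate 3 was 6.46, against 7.44 to 7.76 on the other 4 drug-treated arrays. Fabp1 in caloric restriction replicate 4 was 12.26, against 12.41 to 12.47 on the other 4 restricted arrays.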

How the results depend on the processing

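Across 9 other settings and 14 fits that each left out an array, no member passed the threshold in any comparison. Leave-one-out counts of genes called over the whole table ran from 0 to 12 for canagliflozin against HFD (12 without canagliflozin replicate 3 and 1 without replicate 5) and from 0 to 16 against caloric restriction (16 without canagliflozin replicate 3, 2 without replicate 2 and 0 without each of 8 other arrays), with 1 gene called against HFD under a mean log2 filter of 5 or 6. Against caloric restriction the count was 0 with the 2 groups fitted alone or a filter at 6, and 2 with the replicate block (Angptl8 and Ppp1r3c, not Rtkn). Counts of members higher at an unadjusted p were an alternative chosen after seeing the data. When single arrays were left out, they ranged from 3 to 4 for canagliflozin against HFD, beside 2.66% to 3.7% of all genes. Against caloric restriction they ranged from 2 to 4, beside 2.72% to 3.51%. The filter at 6, which removes Pdk4 and Fabp4, left 2 of 8 in each comparison, beside 3.32% and 3.93% of the genes kept. It lowered the median difference against HFD to 0.19. With the 2 groups fitted alone or trended and robust variance, the count against HFD was 3, without Pdk4, beside 3.08% and 3.13% of all genes.

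Signs turned only where differences were near 0 or rested on 1 array. For canagliflozin against HFD, Creb3l3 was 0.017 with cyclic loess, 0.004 with array weights and 0.017 with the replicate block, and ran from -0.114 to 0.075 without single arrays, and Fabp2 from -0.19 to 0.14. For caloric restriction against HFD, Fabp4 was 0.004 with cyclic loess and 0.007 with the replicate block, where Slc22a5 was -0.003 and Cd36 -0.016. Without single arrays Vnn1 ran from -0.26 to 0.37, Retsat from -0.012 to 0.168, Slc22a5 from -0.053 to 0.155, Creb3l3 from -0.11 to 0.007, Fabp4 from -0.16 to 0.15, Cd36 from -0.15 to 0.23 and Mgll from -0.15 to 0.011. For canagliflozin against caloric restriction Creb3l3 ran from -0.054 to 0.135 and Fabp1 from -0.012 to 0.059. No label says what same-numbered arrays share beyond the number. Deviations of 13 such pairs correlated from -0.09 to 0.20 (median 0.05). Those of 52 pairs with different numbers correlated from -0.21 to 0.18 (median -0.02). In 9 of 26 cases the best partner in another group had the same number. Whether arrays of different groups were handled together was not tested. The block moved no member past the threshold. The cause of these shifts was not tested.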
